A study of Mus musculus with 12 samples.

Results

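The net state of a fibroblast line exposed to 5 cytokines at once was described by comparing the 3 libraries given all 5 with the 3 control libraries. These are 6 of the 12 libraries of the series, chosen by their labelled treatment. The cells were 3T3-L1, an embryonic mouse fibroblast line known as a preadipocyte, cultured for 24 h in every condition. The control cells received no cytokine. The combination, written IL-4/13 + Inf, held IL-4, IL-13 and IL-17A at 50 ng/mL each, with 20 ng/mL of TNF-α and 0.5 ng/mL of IL-1β. The other 6 libraries, 3 with IL-4 and IL-13 alone (IL-4/13) and 3 with the other 3 cytokines alone (Inf), at the same doses, served as the partial treatments against which the combination was set. All libraries came from 1 cell line, and the labels do not say whether the 3 libraries of a condition came from separate cultures, so that p-values measure the spread between these libraries.

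IL-4 and IL-13 are type 2 cytokines that share the IL-4 receptor alpha chain and act through the transcription factor STAT6. TNF-α, IL-1β and IL-17A act on separate receptors that lead to NF-κB, MAP kinases and C/EBP factors. Fibroblasts make and remodel the extracellular matrix, and under such cytokines they also release chemokines, which draw leukocytes into tissue.

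Deposited counts summed to 14953341 to 20477464 per IL-4/13 + Inf library and to 15869141 to 17343972 per control library. Of 56941 genes in the table, 14810 passed a filter on low counts and were tested. All 10 fibroblast markers checked were among them. Levels are given as CPM, counts scaled to the size of their library, which compare a gene between libraries but not with other genes. Where genes are set against each other, TPM, which also take transcript length into account, are used. Differences are log2 fold changes with their standard errors (SE) from a quasi-likelihood fit of the 12 libraries with edgeR. Calls required a log2 fold change beyond 0.25 together with an adjusted p below 0.05, and "rose" and "fell" are used of called genes. The members nearest to these limits were Suco (0.2501) and Tpt1 (−0.25003) just inside the fold change limit and Ttll7 (0.2491) and Gm10036 (−0.2499) just outside, and on the p side D430040D24Rik (adjusted p = 0.0498) inside and Tafa1 (adjusted p = 0.05004) outside.

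With all 5 cytokines, 1981 genes rose (13.4% of those tested) and 1707 fell (11.5%). The rises were larger. Their median log2 fold change was 0.68, and 714 exceeded 1, 325 exceeded 2 and 166 exceeded 3. The median of the falls was −0.51, with 382, 92 and 22 beyond the same limits. Over all tested genes the median log2 fold change was −0.00084. The IL-4/13 + Inf and control libraries did not overlap for 1944 of the risen and 1674 of the fallen genes. These genes were called from the same libraries, so that the separation follows largely from the call. The share over all tested genes is not given, and the counts are a description. The genes that rose took 9.53% of CPM in control and 17.6% with IL-4/13 + Inf, and the genes that fell took 18.6% and 12.5%. Over all tested genes, 2 libraries of the same group differed by at most 0.345 with IL-4/13 + Inf and 0.368 in control (root mean square difference of log2 CPM), and 2 libraries of different groups by at least 0.750.

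**Figure D1:**
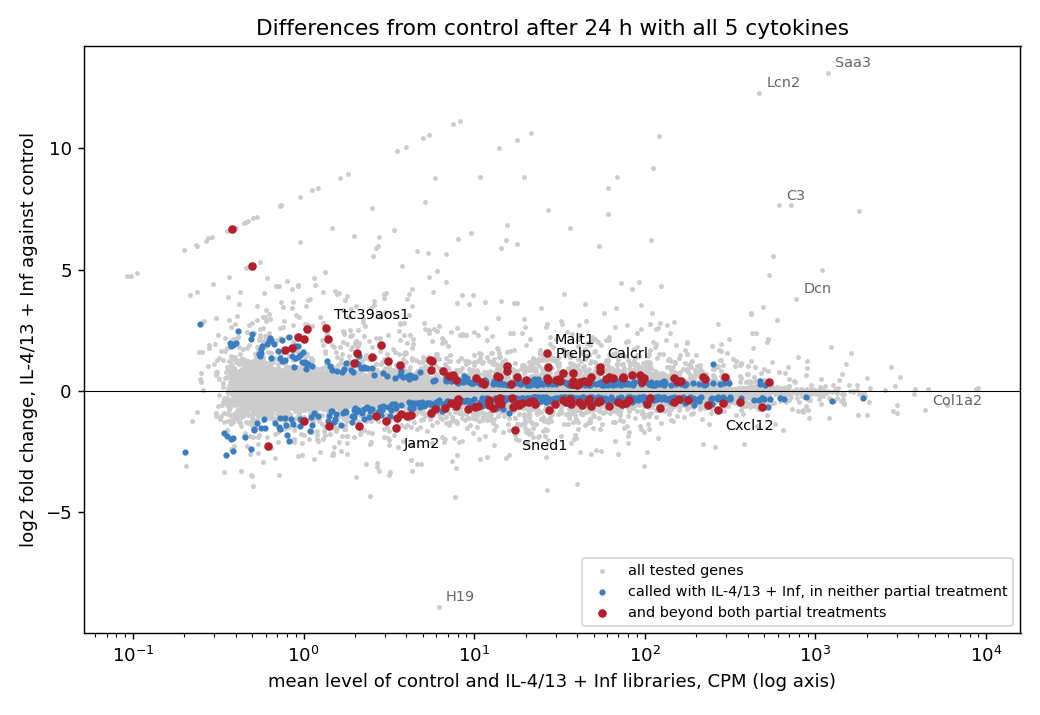
Log2 fold change of IL-4/13 + Inf against control (vertical) for each tested gene by its mean CPM over both groups (horizontal, log axis), with genes called in the combination and in neither partial treatment in blue and those also beyond both partial treatments in red. Names in grey mark genes also called in a partial treatment, such as Saa3 at 13.11 and H19 at −8.88, while most coloured genes lie close to the 0 line.

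The first question was which genes differed from control only when all 5 cytokines were present. IL-4/13 alone raised 412 genes (2.78%) and lowered 380 (2.57%), and Inf alone raised 2420 (16.3%) and lowered 2266 (15.3%), all against the same control libraries. Of the genes that rose with IL-4/13 + Inf, 336 were called in neither direction by either partial treatment, as were 451 of those that fell. These combination-only genes are 2.27% and 3.05% of the genes tested, and 16.96% of all rises and 26.4% of all falls. The class is defined by what did not pass a threshold in the partial treatments, and a gene that was not called there is not shown to be unaffected.

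Most of the class differed from control by little. The median log2 fold change was 0.39 for the 336 rises, against 0.77 for the other rises, and −0.39 for the 451 falls, against −0.57 for the other falls. Only 67 of these rises and 55 of these falls exceeded 1 on the log2 scale. The partial treatments mostly leaned the same way, with median log2 fold changes in the 336 rises of 0.13 with IL-4/13 and 0.18 with Inf, and in the 451 falls of −0.14 and −0.18. In 222 of the rises both partial values were positive, and in 334 of the falls both were negative, while both had the opposite sign in 6 and 7 genes. The partial values share the control libraries from which these genes were chosen, which favours the same sign. The medians and counts are therefore a description, and the share of each sign over all tested genes is not given. Medians over all tested genes were −0.0014 with IL-4/13 and 0.0073 with Inf. In 86 of the rises and 145 of the falls a partial treatment had passed the p threshold with a difference too small to be called. When IL-4/13 + Inf was tested directly against the partial treatments, 124 of the 336 rises and 199 of the 451 falls differed from neither.

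A stricter group was therefore separated, namely combination-only genes that also differed in the same direction from Inf and from IL-4/13. Over all tested genes, IL-4/13 + Inf was higher than Inf for 1118 (7.55%) and lower for 1037 (7%), and was higher than IL-4/13 for 1971 (13.3%) and lower for 1627 (11%). The stricter group held 67 genes that rose, 19.9% of the 336, and 69 that fell, 15.3% of the 451. The values used to choose them are a description and carry no further test. In 63 of the 67, every IL-4/13 + Inf library lay above all 9 others, and in 60 of the 69 every one lay below, where over all tested genes this was so for 624 (4.21%) and 556 (3.75%).

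The interaction term asks whether the log2 response to IL-4/13 with Inf differs from that without Inf. It was called higher with Inf for 225 genes (1.52%) and lower for 236 (1.59%) of all tested. Among the combination-only genes it was called in the direction of their change for 29 of the 336 rises and 14 of the 451 falls, of which 21 and 11 belonged to the stricter group. The definition of the class favours this direction, so that these counts are a description.

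Among the rises of the stricter group, the largest by fold among genes of at least 2 CPM were of several kinds. Malt1 (ENSMUSG00000032688), the paracaspase that joins antigen receptors and other inputs to NF-κB, had 13.5, 13.3 and 13.3 CPM in the control libraries and 39.5, 37.8 and 42.7 CPM with IL-4/13 + Inf. Its means were 14.8 CPM with IL-4/13 and 14.2 CPM with Inf. The 9 libraries without all 5 cytokines thus stood together, and the log2 fold change against control was 1.58 (SE 0.09, adjusted p = 8.03e-15).

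Hdc, histidine decarboxylase, which makes histamine, rested on few counts elsewhere. It had 0.400, 0.558 and 0.600 CPM in control and 2.63, 1.97 and 2.23 CPM with IL-4/13 + Inf, with 0.425 CPM on average in IL-4/13 and 0.245 in Inf. The log2 difference was 2.12 (SE 0.40, adjusted p = 7.91e-05). Il20rb, a receptor subunit for IL-19, IL-20 and IL-24, had 1.43, 0.930 and 0.720 CPM in control and 2.73, 3.20 and 3.31 CPM in the combination, a log2 difference of 1.57 (SE 0.29, adjusted p = 5.96e-05). For both genes the libraries of the combination lay above all 9 others.

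Calcrl, which pairs with accessory proteins to form receptors for CGRP and adrenomedullin, was the most abundant of these 12 rises by TPM, at 34.9 TPM with IL-4/13 + Inf. Its control libraries held 35.8, 37.1 and 35.3 CPM and its IL-4/13 + Inf libraries 72.9, 72.6 and 71.7 CPM, and the log2 fold change was 1.01 (SE 0.06, adjusted p = 7.87e-15). Both partial means were a little above control, at 41.8 and 39.96 CPM. Prelp, a small leucine-rich proteoglycan of basement membranes and cartilage, went from 17.4, 17.4 and 19.3 CPM to 38.3, 34.2 and 36.2 CPM, a log2 difference of 1.01 (SE 0.08, adjusted p = 1.24e-11). Prickle1, a planar cell polarity protein, went from 9.94, 9.99 and 10.7 to 20.03, 19.3 and 23.1 CPM, a log2 difference of 1.02 (SE 0.11, adjusted p = 2.36e-09). For both, the partial means (19.8 and 17.1 CPM for Prelp, 9.07 and 9.48 CPM for Prickle1) lay within 2 CPM of the control mean.

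Of the rest, Smpdl3b, a lipid phosphodiesterase of the cell surface, rose by 1.41 on the log2 scale, Fndc10 by 1.27, the betaine and GABA transporter Slc6a12 by 1.23, the focal adhesion protein Tns4 by 1.22, and Cystm1 by 1.15. Ttc39aos1, an antisense transcript with 0.114, 0.496 and 0.540 CPM in control and 1.88, 2.42 and 2.70 CPM with IL-4/13 + Inf, had the largest log2 fold change, 2.59. The libraries were stranded but how strand was used in counting is not given in the sources used here, so that its reads and those of Ttc39a cannot be told apart. Slc6a12 and Tns4 were the 2 of the 12 in which a library of a partial treatment reached into the range of the IL-4/13 + Inf libraries. Log2 fold changes with IL-4/13 and with Inf, none of them called, were 0.68 and 1.03 for Ttc39aos1 and 0.16 and 0.55 for Slc6a12. They were 0.44 and 0.45 for Tns4, 0.45 and 0.11 for Cystm1, 0.34 and 0.25 for Fndc10 and −0.17 and 0.06 for Smpdl3b.

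Further rises of the same group, named after their values were seen, were in Plat, tissue plasminogen activator (176 CPM in control, 192 with IL-4/13, 186 with Inf and 262 with IL-4/13 + Inf), and the transcription factor Myc (135, 141, 144 and 179 CPM in the same order). Their log2 fold changes against control were 0.57 (SE 0.10, adjusted p = 0.000813) and 0.40 (SE 0.05, adjusted p = 1.65e-08). Psmb10, a catalytic subunit of the immunoproteasome, rose by 0.57 (adjusted p = 8.99e-05), and the pseudokinase Trib1 by 0.83 (adjusted p = 2.03e-12).

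The falls of the stricter group included secreted and surface proteins of fibroblasts. Cxcl12 (ENSMUSG00000061353), the chemokine that holds leukocytes and progenitors near stromal cells, was the most abundant of the 12 falls named by TPM, at 148 TPM in control. It had 334, 349 and 339 CPM in control and 195, 201 and 195 CPM with IL-4/13 + Inf, and its log2 fold change was −0.79 (SE 0.05, adjusted p = 3.26e-15). With either partial treatment it stayed near control, at 321 ± 19.3 and 343 ± 13.3 CPM (SD, n = 3 each), and no library of these overlapped with the combination. Cxcl12 was the only chemokine of the tested list that fell.

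Sned1, a matrix protein with sushi, nidogen and EGF-like domains, had 28.1, 22.9 and 26.9 CPM in control and 8.43, 8.38 and 9.04 CPM with IL-4/13 + Inf. This was the largest of these falls, at −1.60 (SE 0.20, adjusted p = 4.05e-05) on the log2 scale. Both partial means were below control, at 18.4 CPM with IL-4/13 and 19.3 CPM with Inf, without a call. Sned1 left the class when Inf replicate 2 or Inf replicate 3 was left out, when low counts were not filtered and when each comparison was fitted on its own libraries. Ly6a, the stem cell antigen Sca-1, had 34.2, 35.7 and 33.8 CPM in control and 20.9, 19.5 and 19.4 CPM in the combination, a log2 difference of −0.79 (SE 0.07, adjusted p = 3.7e-10), and 10% of the 50-mers of its longest transcript occur in other genes. Its partial means were 32.8 CPM with IL-4/13 and 29.2 CPM with Inf. The log2 difference with Inf, −0.245 (adjusted p = 0.00668 by edgeR), passed the p threshold and just missed the fold change limit.

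Fgf2, a fibroblast growth factor, had 6.63, 5.21 and 5.22 CPM in control and 2.98, 2.64 and 2.90 CPM with IL-4/13 + Inf, a log2 difference of −1.002 (SE 0.21, adjusted p = 0.000246). Jam2, a junctional adhesion molecule that binds leukocyte integrins, fell from 5.83, 5.21 and 4.56 CPM to 2.08, 1.57 and 1.75 CPM, a log2 difference of −1.52 (SE 0.24, adjusted p = 1.01e-05). Neither overlapped with any other library. The remaining falls were of the secreted protein Kazald1 (−1.45), the cornichon protein Cnih2 (−1.24), the pseudokinase Ulk4 (−1.10), the membrane progestin receptor Paqr8 (−1.03), the calcium- and integrin-binding protein Cib2 (−1.02), ketohexokinase Khk (−0.93), which starts fructose breakdown, and the semaphorin Sema6a (−0.90). Their values with IL-4/13 and with Inf, none of them called, were also below 0. They were −0.66 and −0.58 for Kazald1, −0.43 and −0.36 for Cnih2 and −0.41 and −0.41 for Ulk4. For Paqr8 they were −0.05 and −0.27, for Cib2 −0.47 and −0.13, for Khk −0.09 and −0.07 and for Sema6a −0.47 and −0.04. For Kazald1, Ulk4 and Paqr8 a library of a partial treatment reached into the range of the combination.

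Further falls of this group, named after their values were seen, were in Vcan, the large proteoglycan versican (595 CPM in control, 544 with IL-4/13, 499 with Inf and 382 with IL-4/13 + Inf, log2 fold change −0.64 (SE 0.11, adjusted p = 0.00106)), in Reck, a membrane-anchored inhibitor of metalloproteinases (−0.75, adjusted p = 9.6e-06), in the superoxide-forming oxidase Nox4 (−0.61, adjusted p = 0.000466), in the Wnt effector Lef1 (−0.45, adjusted p = 0.00893) and in the cytokine Clcf1 (−0.46, adjusted p = 4.33e-06).

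**Figure D2:**
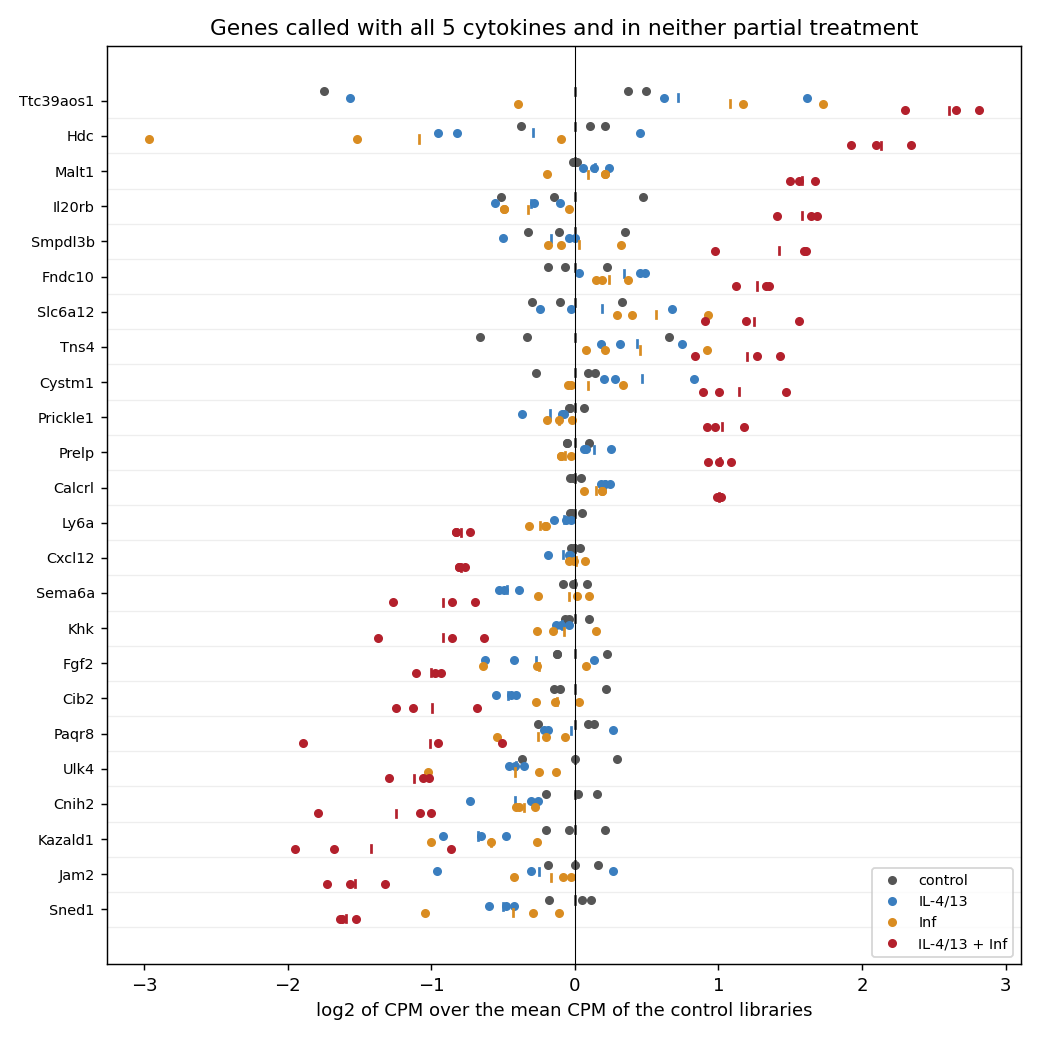
Level of each of the 24 named combination-only genes in every library, as log2 of its CPM over the mean CPM of the control libraries, with 1 point per library, a bar at the mean of each condition, and 1 colour per condition. The IL-4/13 + Inf points lie apart from all other points for 10 of the 12 rises and 9 of the 12 falls, the exceptions being Slc6a12, Tns4, Kazald1, Ulk4 and Paqr8.

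Whether a gene stayed in the class was followed for the 24 genes named by rule. Those of the stricter group named after their values were seen, such as Plat, Myc and Vcan, were not checked. The class depended on which library was left out for some of the 24. Of the 24, 15 stayed combination-only in each of the 12 fits that left out a library, Malt1, Il20rb, Calcrl, Prelp, Prickle1, Cxcl12 and Jam2 among them, and 10 also stayed beyond both partial treatments in all 12. Hdc and Ttc39aos1 left the class without Inf replicate 2, Kazald1 without Inf replicate 3, Tns4 without control replicate 2 and Ulk4 without control replicate 3. Ly6a left it without control replicate 3, Inf replicate 1 or Inf replicate 3, Sema6a without Inf replicate 1, Inf replicate 3 or IL-4/13 + Inf replicate 3, and Slc6a12 without control replicate 1, IL-4/13 replicate 3 or Inf replicate 3. Slc6a12 also left it under a replicate block and without the filter on low counts, Ly6a without the filter and with libraries scaled by their totals alone, and Sema6a when each comparison was fitted on its own libraries. With only genes of a mean of at least 50 counts tested, Ttc39aos1, Hdc, Il20rb, Smpdl3b, Tns4, Cystm1, Kazald1 and Paqr8 were not in the class. Membership of the stricter group was less stable. It held in 1 of the 12 fits that left out a library for Sema6a, in 5 for Tns4, Kazald1 and Ulk4, in 6 for Slc6a12, in 7 for Cib2, in 8 for Cystm1 and Paqr8, in 9 for Ttc39aos1 and Ly6a, in 10 for Sned1 and Fgf2 and in 11 for Hdc and Cnih2. Under 7 other settings (tool, scaling, filters, block and own libraries) it held in 2 for Cystm1, 3 for Kazald1 and 4 for Sema6a. It held in 5 for Slc6a12, Sned1, Paqr8 and Ly6a, and in 6 or 7 for the rest.

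Promoter sequences of the named combination-only genes were examined for letters that the transcription factors downstream of the 5 cytokines are known to bind. The windows run from 250 bases before to 50 bases after an annotated start and come from RefSeq (build GRCm38.p6), in which 17 of the 24 genes have an entry. These coordinates belong to that build and not to GRCm39, on which the counts were made. Matches were searched on both strands for the STAT6 letters (TTC and GAA with any 4 bases between them), the AP-1 letters TGANTCA, the C/EBP letters TTGCNNAA and the κB motif, and no match of 1 motif overlapped with one of another in the windows printed. The windows printed are those of 3 rises that hold a match, since these show where such letters lie, and those of Hdc, Calcrl and Cxcl12, which are genes the results turn on and hold none. They are written 5′ to 3′ on the strand of the gene, with matches in capitals.
Smpdl3b (chr4:132757122-132757421, minus strand): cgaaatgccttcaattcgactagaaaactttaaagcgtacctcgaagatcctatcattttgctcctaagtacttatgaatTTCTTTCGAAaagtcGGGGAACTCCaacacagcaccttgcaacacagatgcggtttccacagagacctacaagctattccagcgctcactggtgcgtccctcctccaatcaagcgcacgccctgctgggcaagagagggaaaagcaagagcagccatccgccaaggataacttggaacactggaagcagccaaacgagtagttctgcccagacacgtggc
Ttc39aos1 (chr4:109406208-109406507, minus strand): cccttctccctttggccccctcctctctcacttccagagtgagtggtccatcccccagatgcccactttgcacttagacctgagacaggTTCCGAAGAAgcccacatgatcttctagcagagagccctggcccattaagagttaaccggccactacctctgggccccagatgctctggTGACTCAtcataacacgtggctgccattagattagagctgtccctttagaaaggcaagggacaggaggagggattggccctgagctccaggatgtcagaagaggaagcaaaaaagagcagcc
Il20rb (chr9:100486424-100486723, minus strand): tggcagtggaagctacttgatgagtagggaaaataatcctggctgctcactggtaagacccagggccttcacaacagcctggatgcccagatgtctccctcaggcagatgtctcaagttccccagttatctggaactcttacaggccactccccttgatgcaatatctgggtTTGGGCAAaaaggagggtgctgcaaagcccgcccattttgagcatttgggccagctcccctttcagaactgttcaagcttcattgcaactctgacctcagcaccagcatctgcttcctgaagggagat
Hdc (chr2:126618629-126618928, minus strand): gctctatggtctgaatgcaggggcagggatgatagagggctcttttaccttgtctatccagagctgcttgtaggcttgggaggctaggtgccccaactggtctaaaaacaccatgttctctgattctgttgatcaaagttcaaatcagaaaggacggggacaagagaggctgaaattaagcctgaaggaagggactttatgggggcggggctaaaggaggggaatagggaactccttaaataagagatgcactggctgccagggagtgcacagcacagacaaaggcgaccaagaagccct
Calcrl (chr2:84425217-84425516, minus strand): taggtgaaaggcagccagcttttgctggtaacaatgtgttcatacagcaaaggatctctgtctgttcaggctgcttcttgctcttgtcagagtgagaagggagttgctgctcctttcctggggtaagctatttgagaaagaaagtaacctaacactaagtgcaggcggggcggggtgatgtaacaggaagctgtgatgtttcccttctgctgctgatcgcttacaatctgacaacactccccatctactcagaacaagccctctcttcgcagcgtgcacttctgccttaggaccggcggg
Cxcl12 (chr6:117168285-117168584, plus strand): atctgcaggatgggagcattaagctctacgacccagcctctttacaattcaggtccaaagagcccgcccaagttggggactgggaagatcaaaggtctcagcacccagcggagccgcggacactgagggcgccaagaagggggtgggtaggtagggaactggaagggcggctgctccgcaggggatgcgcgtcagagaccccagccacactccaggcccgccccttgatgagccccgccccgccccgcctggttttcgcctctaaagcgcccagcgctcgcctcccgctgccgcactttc

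The window of Smpdl3b holds a STAT6 match followed by a κB match, that of Ttc39aos1 a STAT6 and an AP-1 match, and that of Il20rb a C/EBP match on the opposite strand. Among windows not printed, 1 of the rise Slc6a12 holds a κB and an AP-1 match, and 1 of the fall Kazald1 a C/EBP match. The other named genes with an entry hold no match. Over the 325 promoters of combination-only rises found in the table, 5.85% held the STAT6 letters, 10.2% the κB motif, 6.46% the AP-1 letters and 8.92% the C/EBP letters. Over the 429 promoters of the falls these shares were 3.96%, 13.3%, 5.83% and 6.76%, and over the 12950 promoters of all tested genes 5.59%, 10.5%, 5.44% and 8.41%. Over the 74 promoters of the stricter group's rises the shares were 8.11%, 13.5%, 9.46% and 4.05%, and over the 74 of its falls 10.8%, 16.2%, 2.7% and 5.41%. These promoters belong to only 47 and 51 genes, some with several overlapping windows. The shares rest on 3 to 10 windows for the rises and 2 to 12 for the falls, and differences between shares were not tested. In all 32851 promoters of the table they were 6.95%, 8.46%, 7.81% and 10.8%. A match is a description of letters and not a bound site, and nothing follows about a factor where none was found.

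The second question was what the combined state consisted of as a whole. The 40 gene lists tested below were chosen with earlier results of these data known, and 1 gene may stand in several. Counts of called members are to be read against the background of 13.4% of all tested genes called up and 11.5% called down, and medians against −0.00084.

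**Figure D3:**
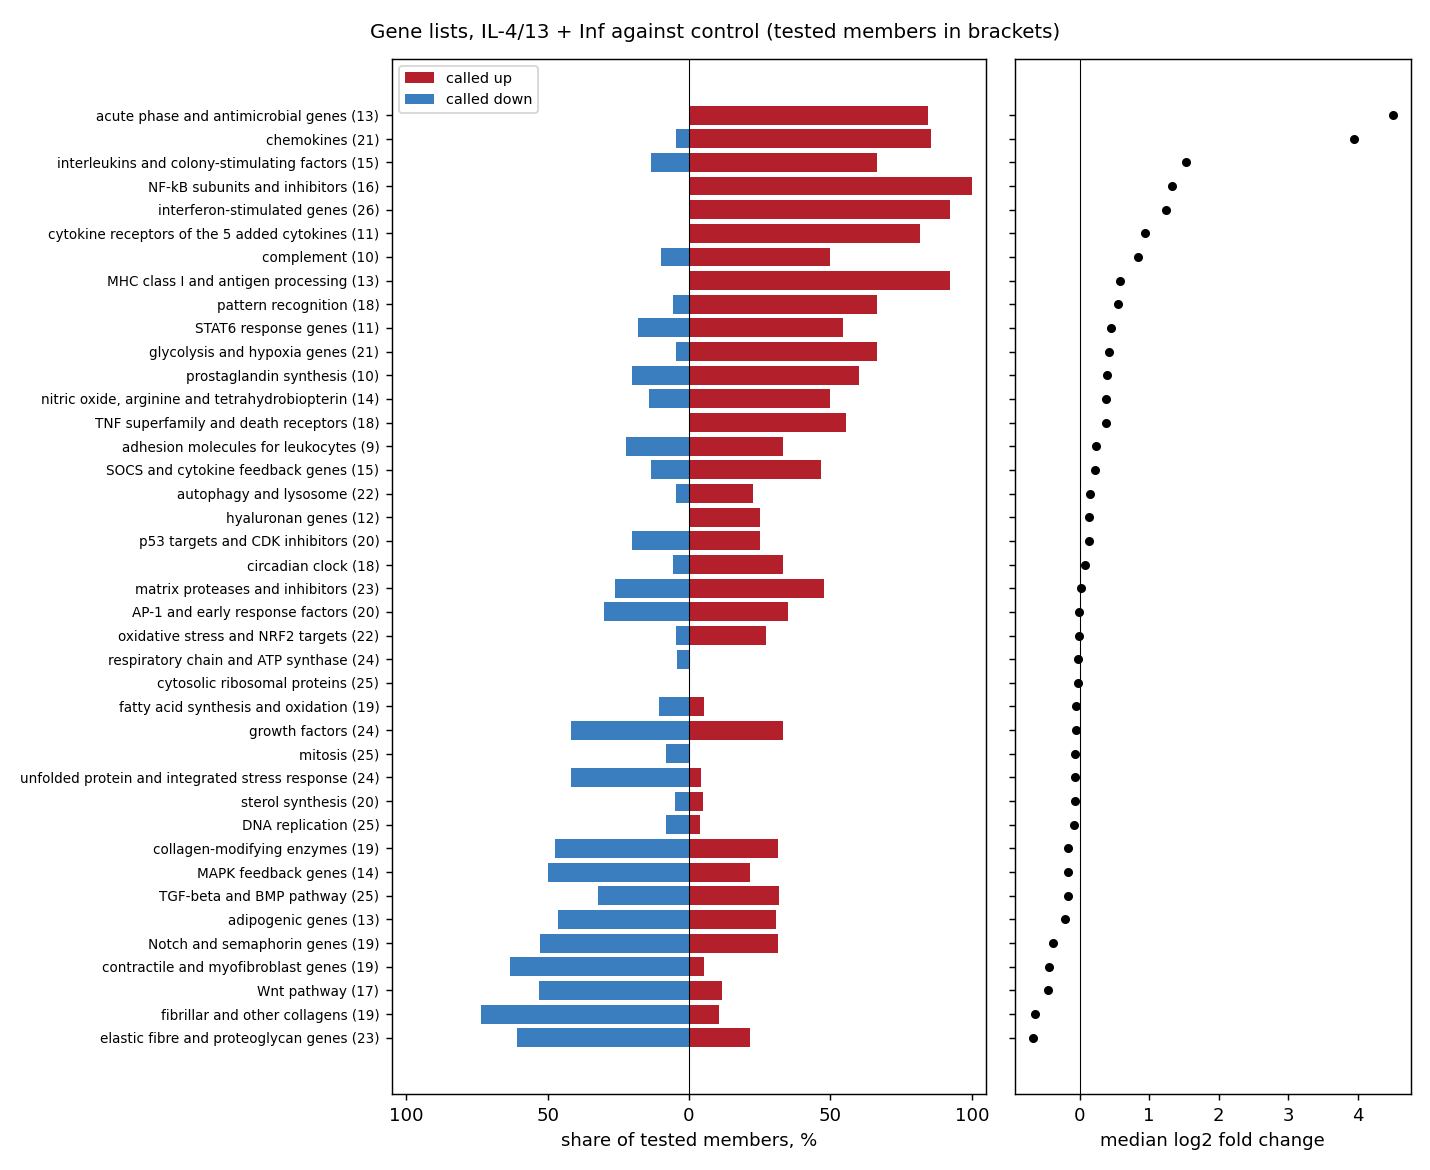
Share of tested members called up (right, red) and called down (left, blue) with IL-4/13 + Inf against control in each of 40 gene lists, and the median log2 fold change of the tested members (right panel), ordered by that median. Acute phase genes (4.49) and chemokines (3.94) stand at the top and elastic fibre and proteoglycan genes (−0.67) at the bottom.

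Many secreted signals rose. Of 21 tested chemokines, 18 rose and 1 fell, with a median log2 fold change of 3.94. Cxcl5, a neutrophil attractant, had 25.5, 17.9 and 19.1 CPM in control and 3582, 3457 and 3621 CPM with IL-4/13 + Inf, a log2 difference of 7.41 (SE 0.12, adjusted p = 4.16e-12). Ccl2, which attracts monocytes, had 73.6, 66.4 and 61.2 CPM and 2099.8, 2081 and 2204 CPM in the same order, a log2 difference of 4.99 (SE 0.06, adjusted p = 3.32e-28). Ccl7, a close relative, rose by 4.78. Ccl3 and Cxcl3 had 0 counts in every control library and means of 14.98 ± 0.741 and 10.1 ± 1.16 CPM (SD, n = 3 each), at least 83.6-fold and 56.2-fold higher when control is set to 3 counts per library. The fitted log2 values of genes at 0 depend on the prior count, so that their rank among the largest rises is not exact.

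Of 15 tested interleukins and colony-stimulating factors, 10 rose and 2 fell (median 1.53). Csf3, which drives neutrophil production, had no count in any control library and 15.5, 16.5 and 17.4 CPM with IL-4/13 + Inf, at least 91.9-fold higher. Csf2 was at least 198-fold and the alarmin Il1a at least 239-fold higher on the same floor. In the direct test against Inf, Csf2 was higher (24.7 CPM with Inf, 35.5 with IL-4/13 + Inf) and Il1a lower (56.3 and 42.8 CPM). Lif, a cytokine of the IL-6 family, rose from 8.61 ± 0.971 to 159 ± 3.36 CPM (SD, n = 3 each) and Csf1, the macrophage growth factor, from 683 ± 29.1 to 1068 ± 29.03 CPM. The 2 falls, Clcf1 and Il16 (0.719 to 0.185 CPM), were both combination-only.

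**Figure D4:**
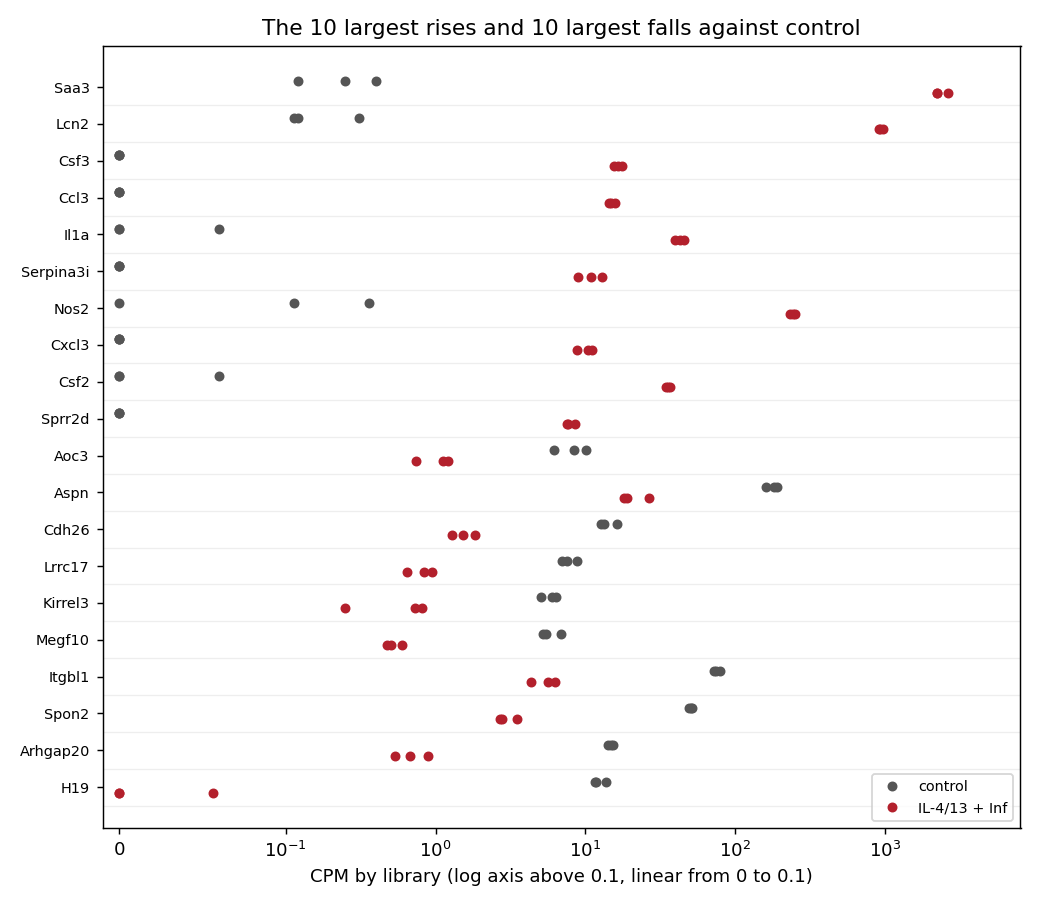
CPM of every control (grey) and IL-4/13 + Inf (red) library for the 10 largest rises and 10 largest falls against control among genes of at least 5 CPM in 1 group whose libraries do not overlap, on an axis that is logarithmic above 0.1 CPM and linear below. Saa3 spans from 0.120 CPM to 2644 CPM, and 8 of the 10 rises have at least 1 control library at 0.

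Acute phase and antimicrobial genes, whose proteins are made by liver and barrier cells in inflammation, rose in 11 of 13 tested, with a median of 4.49. By edgeR, the 2 that were not called (Hpx and Lyz2) had adjusted p values of 0.899 and 0.0614. Saa3, serum amyloid A3, had 0.400, 0.248 and 0.120 CPM in control and 2213, 2218 and 2644 CPM with IL-4/13 + Inf, a log2 difference of 13.11 (SE 0.19, adjusted p = 1.41e-12). Lcn2, lipocalin 2, which binds bacterial siderophores, had 0.114, 0.310 and 0.120 and 925, 914 and 972 CPM, a log2 difference of 12.30 (SE 0.11, adjusted p = 2.36e-34). The control values rest on a few counts per library. Cp, the copper carrier ceruloplasmin, rose from 138 ± 3.24 to 1056 ± 15.4 CPM (SD, n = 3 each). The rise of this list was smaller than with Inf. Its summed level was 179 to 186 CPM in control, 7934 to 8839 CPM with Inf and 4579 to 5117 CPM with IL-4/13 + Inf, and in the direct test 11 of the 13 were lower with IL-4/13 + Inf than with Inf.

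Of 10 tested complement genes, 5 rose and 1 fell (median 0.84). C3, the central component, had 5.83, 6.57 and 5.88 CPM in control and 1198, 1223 and 1248 CPM with IL-4/13 + Inf, a log2 difference of 7.65 (SE 0.11, adjusted p = 6.81e-16). C1s1, a protease of the classical pathway, rose from 13.9 to 69.5 CPM and Cfb from 0.0200 to 0.410 CPM. Of the 50-mers of these 2 genes, 24.3% and 81.4% occur in other genes, so that their counts are uncertain.

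The NF-κB subunits and inhibitors rose in 16 of 16 (median 1.32), among them the subunit Nfkb1, from 196 ± 7.09 to 857 ± 4.96 CPM (SD, n = 3 each), its inhibitor Nfkbia (2.84) and the adaptor Traf1 (3.62). Nfkb1 had means of 449.8 CPM with IL-4/13 and 465 CPM with Inf and was higher with IL-4/13 + Inf than with either. Of the receptors of the 5 added cytokines and their relatives, 9 of 11 rose (median 0.93). Tnfrsf1a and Il17ra, the signalling receptors of TNF-α and IL-17A, were the 2 not called, with log2 fold changes of −0.02 and −0.09 (adjusted p = 0.788 and 0.62).

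Il13ra2, the receptor that binds IL-13 and is regarded as a decoy, had 0.343, 0.496 and 0.300 CPM in control and 218, 221 and 232 CPM with IL-4/13 + Inf, a log2 difference of 9.18 (SE 0.12, adjusted p = 1.71e-31). Its partial means were 6.78 CPM with IL-4/13 and 57.6 CPM with Inf, so that the combined level was above both. Il1rl1, the IL-33 receptor, rose from 549 ± 24.9 to 1929.8 ± 40.7 CPM (SD, n = 3 each) and Il1rap, the shared accessory chain of IL-1 receptors, by 1.91.

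Of 11 tested genes known to respond to STAT6, 6 rose and 2 fell (median 0.46). Ch25h, cholesterol 25-hydroxylase, was at least 156-fold higher than 3 counts per control library, with 30.7, 27.3 and 25.9 CPM, and Cish, a cytokine signalling inhibitor, rose from 2.64 ± 1.02 to 32.7 ± 0.382 CPM (SD, n = 3 each). Members of this list do not all follow its name here, since Postn, the matricellular protein periostin, fell from 428 to 85.8 CPM and Pparg, the adipogenic nuclear receptor, from 18.1 to 10.8 CPM. Among the 15 SOCS and cytokine feedback genes 7 rose and 2 fell (median 0.22), with the mRNA-degrading nuclease Zc3h12a at 4.32 and Socs3 at 2.41.

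Interferon-stimulated genes rose in 24 of 26 (median 1.24), although no interferon was added. Ifit1, which binds viral RNA, had 55.3, 62.3 and 91.6 CPM in control and 286, 288 and 278 CPM with IL-4/13 + Inf, a log2 difference of 2.03 (SE 0.24, adjusted p = 0.000149). Bst2, tetherin, rose by 1.30 and the guanylate-binding proteins Gbp3 and Gbp5 by 2.09 and 3.92. The control libraries differed among themselves in these genes, with summed levels of 976 to 1471 CPM against 2559 to 2942 CPM in the combination. The 2 not called were Mx1 (0.68, adjusted p = 0.156) and Irf1 (0.14, adjusted p = 0.0549). With Inf alone 24 of the 26 were called up as well.

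Of 13 genes of MHC class I and antigen processing, 12 rose (median 0.58). H2-K1, a class I heavy chain, rose from 339.9 ± 19.4 to 777 ± 13.5 CPM and B2m, its light chain, from 580.3 ± 24.1 to 823 ± 21.9 CPM (SD, n = 3 each). H2-K1, at 641 CPM with Inf, was higher still with IL-4/13 + Inf, and the direct test against Inf called 5 of the 13 higher. Among 18 pattern recognition genes 12 rose and 1 fell (median 0.55), with the lipopeptide receptor Tlr2 at 39.3 and 140.2 CPM, which was below its 288 CPM with Inf.

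Markers of leukocytes were checked beside these groups. Of 12 macrophage markers 6 passed the filter, and their summed level was 21.2 to 24.7 CPM in control and 47.8 to 53.7 CPM with IL-4/13 + Inf, most of it from Cd14 (14.9 and 40.7 CPM), which rose, as did Mrc1 (0.181 and 3.03 CPM), while Csf1r fell (3.54 and 2.05 CPM). C1qa and Tyrobp had 0 counts in all 12 libraries, and the others that did not pass, Ptprc, Itgam, Adgre1 and Fcer1g, had at most 5 counts in any library. Of 8 T cell markers 5 were at 0 in every library, and the 2 tested were not called. Of 8 endothelial markers 2 were tested and Cdh5 rose (0.119 to 0.572 CPM), and of 8 keratinocyte markers 2 were tested and Trp63 fell (5.35 to 3.79 CPM). The part of such cells in the results was not tested.

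Matrix genes changed in both directions. Of 19 collagens 14 fell and 2 rose, with a median of −0.63. Col1a1 had 4048, 3365 and 4266 CPM in control and 2109.9, 2135 and 1997 CPM with IL-4/13 + Inf, a log2 difference of −0.90 (SE 0.09, adjusted p = 2.73e-05). Col1a2 fell from 5541 ± 427 to 3212 ± 69.2 CPM and Col6a3, a chain of the microfibrillar collagen VI, from 358 ± 49.6 to 79.4 ± 7.86 CPM (SD, n = 3 each). Col15a1 fell by 4.31 on the log2 scale, and Col5a3 (0.82) and Col8a1 (0.53) were the rises. In bulk libraries fewer cells that make a transcript and less of it per cell cannot be told apart.

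Elastic fibre and proteoglycan genes fell in 14 and rose in 5 of 23 (median −0.67). The proteoglycans split. Bgn, biglycan, fell from 3633 ± 100.1 to 2409 ± 49.5 CPM and Aspn, asporin, from 177 ± 14.5 to 21.2 ± 4.72 CPM (SD, n = 3 each). Dcn, decorin, rose from 102, 108 and 99.7 CPM to 1455, 1415 and 1450.3 CPM, a log2 difference of 3.80 (SE 0.05, adjusted p = 1.69e-32). Lum (2.59), the matricellular Tnc (1.02) and the combination-only Prelp rose as well. The elastic fibre genes Mfap4 (−3.12) and Fbln5 (−1.67) fell, as did fibronectin, Fn1 (−0.97).

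Among 19 collagen-modifying enzymes 6 rose and 9 fell (median −0.16). The crosslinking enzyme Lox rose from 954 ± 17.8 to 2061 ± 26.5 CPM (SD, n = 3 each), while the prolyl hydroxylase subunit P4ha3 fell by 1.53. Loxl1, Pcolce, Plod1 and Crtap, which crosslink, process or modify collagen, were small combination-only falls of −0.35, −0.31, −0.25 and −0.28. Of 23 matrix proteases and inhibitors 11 rose and 6 fell, with a median of 0.03 that turned to −0.003 when libraries were scaled by their totals alone. Mmp13, a collagenase, rose from 0.629, 0.682 and 0.960 CPM to 119, 114 and 129.98 CPM, Mmp3, stromelysin, from 23.5 ± 1.88 to 1097 ± 80.1 CPM (SD, n = 3 each) and Mmp10 by 6.23, and the inhibitor Timp2 fell by 0.38. Of 12 hyaluronan genes 3 rose (median 0.14), namely Cemip2 (0.78) and Cemip (0.51), which bind or degrade hyaluronan, and the hyaluronan-binding Tnfaip6 (0.37). The call of Cemip was lost in 4 of the 12 fits that left out a library.

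Contractile and myofibroblast genes fell in 12 and rose in 1 of 19 (median −0.44). Acta2, smooth muscle actin, fell from 1284 ± 17.1 to 885 ± 21.6 CPM (SD, n = 3 each), which is −0.54 (SE 0.04, adjusted p = 3.84e-12) on the log2 scale. Tagln and Cnn1, other smooth muscle proteins, fell by 2.10 and 1.91 from 1.42 and 0.957 CPM in control, and the fall of Cnn1 was lost without IL-4/13 + Inf replicate 2 (adjusted p = 0.0505). Fibroblast identity genes were all tested, and of the 10 markers 6 fell (Col1a1, Col1a2, Col3a1, Fn1, Vim and Thy1), 2 rose (Dcn and Lum), and Pdgfra and Pdgfrb were not called (0.19 and 0.07). Their summed level was 16666 to 19435 CPM in control and 11769 to 12139.9 CPM in the combination. Of 8 markers of mature adipocytes, the state into which this line can differentiate, 6 had at most 5 counts in any library, Adipoq among them, and Fabp4 (11.3 to 19.4 CPM) and Lipe (10.6 to 14.96 CPM) rose.

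The 10 largest falls were taken among genes of at least 5 CPM in a group, which leaves out Col15a1 and Mfap4. H19, an imprinted long noncoding RNA, had 13.7, 11.7 and 11.8 CPM in control and 0, 0.0562 and 0 CPM with IL-4/13 + Inf, at least 71.3-fold lower when the combination is set to 3 counts per library. Spon2, a secreted matrix protein, fell from 49.4, 50.4 and 51.3 CPM to 2.68, 3.49 and 2.77 CPM. Itgbl1, a secreted integrin beta-like protein, fell from 78.7, 74.8 and 71.8 CPM to 4.31, 5.62 and 6.28 CPM. The others were Arhgap20 (−4.35), the engulfment receptor Megf10 (−3.44), the adhesion protein Kirrel3 (−3.32), Lrrc17 (−3.27), the cadherin Cdh26 (−3.16), Aspn (−3.08) and the amine oxidase Aoc3 (−3.02). All 10 were also called down with Inf.

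Among the largest rises, Nos2, the inducible nitric oxide synthase, had 0.114, 0 and 0.360 CPM in control and 232, 242 and 249 CPM with IL-4/13 + Inf. Its mean with Inf was 367 CPM, and the direct test called it lower with IL-4/13 + Inf. Serpina3i, a serine protease inhibitor, and Sprr2d, a cornified envelope protein, had 0 counts in control and were at least 60.6-fold and 44.2-fold higher. Of the 50-mers of Serpina3i, 15.4% occur in other genes. Of 14 genes of nitric oxide, arginine and tetrahydrobiopterin 7 rose and 2 fell (median 0.38), with the arginine transporter Slc7a2 rising from 2.86 ± 0.356 to 216 ± 3.72 CPM (SD, n = 3 each). Of 10 prostaglandin genes 6 rose and 2 fell (median 0.40). Ptgs2, cyclooxygenase 2, had 138, 132 and 142 CPM in control and 698, 702 and 748 CPM in the combination, against means of 179.7 with IL-4/13 and 379 with Inf, and Pla2g4a, the phospholipase that releases arachidonic acid, was a combination-only rise of 0.38.

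By TPM, the 10 most abundant of the risen genes were Cxcl5, Ccl2, Ccl7, Ifitm3, Fth1, Spp1, Ldha, B2m, Tpi1 and Saa3, and together they went from 1.41% to 3.66% of all transcripts. Fth1, ferritin heavy chain, rose from 1839.8 ± 54.5 to 3689 ± 119.8 CPM and the matricellular cytokine Spp1 by 0.56. Fth1 had 5090 CPM with Inf and was lower with IL-4/13 + Inf in the direct test. Ldha and Tpi1 are enzymes of glycolysis, and of 21 glycolysis and hypoxia genes 14 rose and 1 fell (median 0.42). With Inf alone 18 of the 21 rose (median 0.66). The direct test called 8 lower and 0 higher with IL-4/13 + Inf than with Inf. Ldha rose from 1649 ± 12.99 to 2368 ± 31.2 CPM and Hk2, hexokinase 2, by 1.06. The fall, in Car9, was combination-only but at 0.519 and 0.166 CPM, and it was lost with DESeq2 (adjusted p = 0.0596). Shared 50-mers were 16.6% for Ldha and 10% for Ifitm3.

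Most proliferation genes were not called. Of 25 DNA replication genes 1 rose and 2 fell (median −0.08), and of 25 mitosis genes 2 fell (median −0.06), both shares below the background. With Inf alone 19 of 25 replication genes and 19 of 25 mitosis genes fell against the same control libraries, and the direct test of IL-4/13 + Inf against Inf called 14 and 13 of the genes of these lists higher. No mitosis gene was called up against control by edgeR or DESeq2, and 0 had a rise at an unadjusted p under 0.05. Mcm2, a helicase subunit, had 255 ± 9.01 CPM in control, 255 ± 4.56 with IL-4/13, 170.3 ± 2.57 with Inf and 208 ± 2.76 with IL-4/13 + Inf (SD, n = 3 each). Top2a, topoisomerase II alpha, had 339, 408, 268 and 325 CPM in the same order. Tyms, thymidylate synthase, was the rise (71.5 to 129.6 CPM), and Mcm5, Mcm2, Ccna2 and Kif23 were the falls, of −0.27, −0.29, −0.30 and −0.29.

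**Figure D5:**
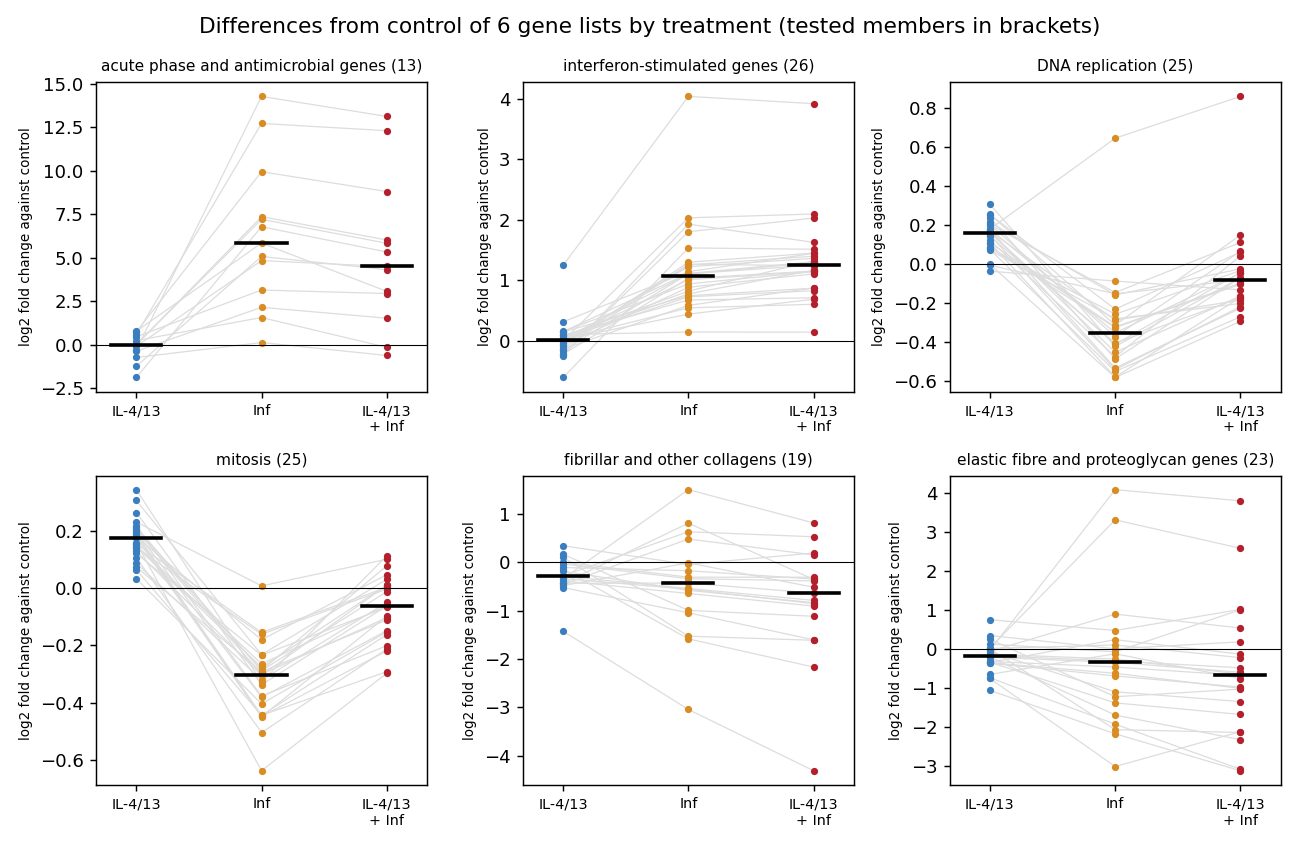
Log2 fold change against control of each tested gene of 6 lists in each of the 3 cytokine conditions (IL-4/13, Inf and both together), with 1 point per gene, grey lines joining the same gene and black bars at the medians. The median of the replication genes is 0.16, −0.35 and −0.08 and that of the mitosis genes 0.18, −0.30 and −0.06, while collagens go from −0.29 and −0.43 to −0.63. All comparisons share the control libraries.

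A few single genes were chosen because they changed with Inf and lay near control in the combination, so that their calls follow from the choice and are a description. Hbegf, a ligand of the EGF receptor, had 35.7, 40.5 and 41.6 CPM in control and 40.02, 40.1 and 36.98 CPM with IL-4/13 + Inf, against means of 59.6 with IL-4/13 and 17.5 with Inf. Plau, the urokinase protease, had 19.3 CPM in control, 38.5 with IL-4/13, 6.76 with Inf and 18.2 with all 5 cytokines. Abca1, the cholesterol exporter, had 21.9, 19.04, 50.5 and 21.4 CPM in that order, and the transporter Slc22a23 17.4, 10.3, 41.8 and 17.3 CPM. Svep1 (−0.21), Id2 (−0.18) and Nbl1 (0.24), with log2 fold changes against control in brackets, were chosen in the same way.

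Few genes of the housekeeping groups were called. Of 25 cytosolic ribosomal protein genes 0 were called in either direction by edgeR or DESeq2 and 1 had a rise at an unadjusted p under 0.05 (median −0.02), with Rplp0 at 2510.03 ± 65.9 and 2578 ± 24.3 CPM (SD, n = 3 each). Of 24 respiratory chain and ATP synthase genes 1 was called, the combination-only fall of Ndufb8 (−0.35), which was lost in 3 of the 12 fits that left out a library (median −0.01). Of 20 sterol synthesis genes 1 rose and 1 fell (median −0.07), Sc5d (0.39) and the combination-only Sqle (−0.26), and of 19 genes of fatty acid synthesis and oxidation 1 rose and 2 fell (median −0.05).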

How the data were processed

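Bulk RNA-seq libraries of 3T3-L1 cells were made from polyadenylated RNA with a stranded kit. The authors deposited raw counts per gene, whole numbers without normalization. The submitters' processing notes name STAR, featureCounts and GRCm39, and the annotation release is not given in the sources used here. Per the labels, all libraries share 1 batch. Deposited depth was 13446005 to 20775769 counts per library, and no 2 libraries held identical values.

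Genes were filtered with edgeR's filterByExpr (minimum count 10, minimum total 15), counts were scaled with TMM factors (0.986 to 1.02), and edgeR's quasi-likelihood model, with robust estimates, was fitted to all 12 libraries by condition (R 4.3.3, edgeR 4.0.16, limma 3.58.1). Benjamini-Hochberg adjustment ran over the 14810 genes of a contrast. The paper names DESeq2 for these libraries, which was run as an alternative (1.42.0). Its limits for pseudobulk genes, 0.05 for the adjusted p and 0.25 for the log2 fold change, served here. Where no library of a group had over 3 counts, 3 counts per library stood in for a bound, which covers counting error only.

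Of the 56941 identifiers, 23268 had no symbol in the table, and 51948 were found in a table of gene names. Transcript lengths, for TPM and 50-mers, came from GENCODE M21 (GRCm38), in which 98.7% of tested genes had one. The fits were checked on simulated data in which 200 genes changed in the combination and none in a partial treatment. The check does not cover genes with a weak response to a partial treatment. It also covers neither genes with few counts nor differences as small as the medians of the combination-only genes. The members and the gene lists (40 pathway lists, 6 marker lists) were chosen with earlier results of these data known. Genes were named by rule, as the 10 largest rises and falls (at least 5 CPM in a group, no overlap), the 12 largest combination-only rises and falls beyond both partial treatments (at least 2 CPM), per list the 2 largest differences and the 2 highest levels, the 10 most abundant rises by TPM and 4 rises and 4 falls with Inf nearest to control in the combination. The other genes named were chosen after their values were seen, and a few genes are not reported here. Alternatives were DESeq2, its size factors, library size alone, 2 other filters, a replicate block, the libraries of the compared groups alone, each library left out, and other thresholds. Figures were drawn with Python 3.11.15 and matplotlib 3.10.9.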

Additional observations from a re-analysis of the deposited data

Results flagged for a closer look

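For 9 of the 24 named combination-only genes, the log2 response to IL-4/13 differed between cells with and without Inf by the interaction term of the edgeR fit. These genes were chosen for standing apart in the combination, which favours such a difference, and no explanation was weighed. The difference was 3.36 for Hdc (SE 0.71, adjusted p = 0.00393), 1.34 for Malt1 (SE 0.14, adjusted p = 1.6e-07), 2.24 for Il20rb (SE 0.47, adjusted p = 0.00335) and 1.53 for Smpdl3b (SE 0.42, adjusted p = 0.034). It was 1.30 for Prickle1 (SE 0.16, adjusted p = 2.49e-06), 0.95 for Prelp (SE 0.12, adjusted p = 4.26e-06) and 0.64 for Calcrl (SE 0.09, adjusted p = 1.22e-05). The response was lower with Inf for Cxcl12, at −0.72 (SE 0.06, adjusted p = 7.41e-09), and for Ly6a, at −0.47 (SE 0.10, adjusted p = 0.00602). The low counts of Hdc and Il20rb, near 0.5 and 1 CPM in control, leave the size of their differences uncertain.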

How the results depend on the processing

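Under other tools, scalings and filters the counts stayed within 1.5 times of those given. DESeq2 shared 295 of the 336 combination-only rises and 394 of the 451 falls. Other thresholds moved them further. At fold change limits of 0.5 and 1, rises numbered 1269 and 714, falls 865 and 382, combination-only falls 282 and 144, and genes beyond both partial treatments 33 and 15 (up) and 25 and 7 (down). Combination-only rises were 146 at a limit of 1. With an unadjusted p of at least 0.05 required in both partial treatments, combination-only rises were 138 and falls 171. An adjusted p of 0.01 left 41 falls beyond both partial treatments. Combination-only genes with a called interaction, 29 up and 14 down, numbered 15 and 4 at a limit of 0.5 and 5 and 0 at 1, 8 falls at a limit of 0, and 18 rises at an adjusted p of 0.01. The 0 is the edgeR count. It was 0 by DESeq2 and 6 at an unadjusted p under 0.05. Alternatives for the interaction counts were chosen after seeing the data.

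With each library left out in turn, rises ranged from 1910 to 2053, falls from 1557 to 1740, combination-only rises from 325 to 415 and falls from 388 to 516, and those beyond both from 59 to 75 and from 49 to 85. The interaction counts ranged from 19 (without control replicate 1) to 29 up and from 10 to 24 (without Inf replicate 3) down.

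The deviations of same-numbered control and combination libraries correlated at −0.029, 0.017 and −0.105. Libraries of the partial treatments were not compared in this way. Counting noise of low genes can hide a shared replicate effect in such values, so whether replicate numbers pair the libraries was not decided. With a replicate block, 1939 genes rose and 1671 fell, combination-only rises were 328 and falls 444, 64 and 70 were beyond both, and 25 and 14 had a called interaction.

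Of 163 named log2 fold changes, 14 changed their call or sign in some setting, and 3017 of 3060 alternative values kept both. Values near 0 in the combination crossed it with a library left out. They ranged from −0.0310 to 0.0210 for Slc22a23 (0.0008 and 0.0164 were also above 0), from −0.1293 to 0.0375 for Abca1 (also 0.0041), from −0.1962 to 0.0074 for Plau and from −0.0644 to 0.0399 for Hbegf (also 0.0219, 0.0016 and 0.0346). Calls were lost in some settings for Areg, Car9, Cemip, Cnn1, Plxna1, Ndufb8, Acaca and Sqle. The cause was not tested. Depth limits genes near 1 CPM, where 3 counts are 0.179 CPM in control.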

Other observations

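Groups not described above also differed from control. Several genes of the integrated stress response that ATF4 controls fell, within a list of 24 genes of the unfolded protein and integrated stress responses of which 10 fell and 1 rose (median −0.06). Atf4 fell from 512 ± 11.5 to 424 ± 3.73 CPM (SD, n = 3 each), the pseudokinase Trib3 by 0.86 on the log2 scale, Ddit3 (CHOP) by 0.71 and Asns, asparagine synthetase, by 0.33. The endoplasmic reticulum chaperones Hspa5 and Calr had values of 0.24 and 0.24, just under the fold change limit, and Sdf2l1 was the rise (0.86). The split was noted after the values were seen.

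Wnt pathway genes fell in 9 and rose in 2 of 17 (median −0.45). Receptors made up most of the falls, with Fzd4 at −1.02, Fzd8 at −0.79, Fzd1 at −0.75, Fzd2 at −0.55, Fzd5 at −0.50, Lrp5 at −0.49 and Lrp6 at −0.36, and the rises were of the R-spondins Rspo2 (1.80) and Rspo3 (1.10). Growth factors rose in 8 and fell in 10 of 24 (median −0.05). Gdnf, a neurotrophic factor, rose from 11.2 ± 1.31 to 49.2 ± 0.216 CPM and Fgf7, keratinocyte growth factor, from 161 ± 6.38 to 388 ± 7.75 CPM, while Ptn, pleiotrophin, fell from 835 ± 41.8 to 327 ± 21.5 CPM (SD, n = 3 each) and Igf1 by 1.76. Notch and semaphorin genes rose in 6 and fell in 10 of 19 (median −0.38), with Sema3c rising by 2.90. TGF-beta and BMP genes were called up in 8 and down in 8 of 25 (median −0.17), and the antagonists Grem1 (0.91) and Fst (1.49) rose.

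Adipogenic genes rose in 4 and fell in 6 of 13 (median −0.20). Cebpd, an early regulator, rose from 35.1 ± 2.81 to 233 ± 10.1 CPM (SD, n = 3 each), and Cebpa (−1.48), Pparg (−0.75) and the preadipocyte protein Dlk1 (−1.10) fell. AP-1 and early response factors rose in 7 and fell in 6 of 20 (median −0.01), MAPK feedback genes in 3 and 7 of 14 (−0.17), p53 targets and CDK inhibitors in 5 and 4 of 20 (0.13), oxidative stress genes in 6 and 1 of 22 (−0.01), autophagy and lysosome genes in 5 and 1 of 22 (0.15), and circadian clock genes in 6 and 1 of 18 (0.09). TNF superfamily and death receptor genes rose in 10 of 18 (0.37) and leukocyte adhesion molecules rose in 3 and fell in 2 of 9 (0.24). Of the last, Vcam1 rose from 234 to 502 CPM and Selp, P-selectin, was at least 29.02-fold higher than 3 counts per control library, with 5.20 CPM, against 0.0789 CPM in IL-4/13 and 1.46 in Inf. Fas, a death receptor, rose by 3.44.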
